A study of Mus musculus with 4 samples.

Results

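Cycling CD8 T cells of mouse tumours were described in 4 single-cell RNA libraries, and compared within each library with tumour CD8 T cells in which the same cell cycle genes were not detected. Cells were chosen by their UMI counts of fixed genes. A cell barcode was taken as cycling when it held at least 1 UMI (unique molecular identifier, which counts 1 captured mRNA molecule) of Cd3d, Cd3e or Cd3g, at least 1 UMI of Cd8a or Cd8b1, and together at least 4 UMIs of Mki67, Top2a, Nusap1 and Cdca8. Barcodes had to hold at least 1000 UMIs and 500 genes, with at most 10% of their UMIs from mitochondrial genes. Of 38519 barcodes, 37151 passed these limits, 35174 passed the CD3 and CD8 gate, and 3590 of the 35174 were cycling. The comparison class was the 24159 CD3- and CD8-positive barcodes with 0 UMIs of the 4 genes, here called 0-UMI cells, and 7425 barcodes with 1 to 3 UMIs belonged to neither class.

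The study asked how loss of BFAR, a membrane-anchored RING-type ubiquitin ligase and apoptosis regulator, in CD8 T cells alters antitumour immunity. All libraries held CD45+ CD8+ T cells sorted from MB49 tumours, a mouse bladder carcinoma line. The WT library came from subcutaneous tumours of C57BL/6Slac mice aged 10-12 weeks, and the KO library from tumours of BFAR-CD8-KO mice of the same strain and age. For Young and Aged, the tumours grew in Rag1-/- hosts aged 8-10 weeks, which lack T and B cells of their own and had received CD8 T cells by intravenous injection on the day of tumour inoculation. The donors of those cells were 8 weeks old for Young and 18 months old for Aged. The labels name the host strain B6.129S7-Rag1tm0Mom/J for Young and B6.129S7-Rag1tm1Mom/J for Aged, they do not name the promoter that drives the CD8-restricted deletion, and each library pools the cells of 3 mice. The WT and KO libraries were made with a 3′ kit and the Young and Aged libraries with an immune profiling kit, so kit and host cannot be told apart, and each group is 1 library.

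A T cell that meets its antigen leaves quiescence, raises E2F-driven genes for DNA synthesis, and then switches on genes of mitosis, which share promoter elements bound by the DREAM and MuvB complexes. In tumours and chronic infection, CD8 T cells pass from a TCF1-positive progenitor state, which keeps memory genes such as Tcf7 and Il7r and renews the pool, to states with several inhibitory receptors such as PD-1, TIM-3 and LAG-3. Which of these states holds the dividing cells differs between settings, so the exhausted and memory genes of the cycling cells are given in detail.

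The 4 genes of the gate encode proteins of the late cell cycle. Mki67 (ENSMUSG00000031004) encodes Ki-67, which coats mitotic chromosomes, and Top2a (ENSMUSG00000020914) encodes the topoisomerase that untangles replicated DNA. Nusap1 (ENSMUSG00000027306) encodes a spindle microtubule protein, and Cdca8 (ENSMUSG00000028873) encodes borealin of the chromosomal passenger complex. Their promoters are shown because many windows of a fixed list of G2 and M genes hold elements of this kind, as counted below. The promoters of all genes that rose with the gate were not counted as a set. The windows run from 250 bases before to 50 bases after the RefSeq start on GRCm38.p6, 5′ to 3′ along the gene: Mki67 at chr7:135716330-135716629 on the minus strand, Top2a at chr11:99024140-99024439 on the minus strand, Nusap1 at chr2:119618048-119618347 on the plus strand and Cdca8 at chr4:124936868-124937167 on the minus strand. Capitals mark CCAAT boxes (CCAAT) and the cell cycle homology region, abbreviated CHR (TTTGAA), on either strand, searched apart, so that matches may share bases.
Mki67: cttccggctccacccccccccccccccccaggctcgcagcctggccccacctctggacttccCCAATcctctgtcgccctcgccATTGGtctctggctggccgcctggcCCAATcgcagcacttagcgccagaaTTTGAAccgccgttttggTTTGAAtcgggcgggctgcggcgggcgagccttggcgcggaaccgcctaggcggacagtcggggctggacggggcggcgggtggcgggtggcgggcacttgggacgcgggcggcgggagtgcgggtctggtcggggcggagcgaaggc
Top2a: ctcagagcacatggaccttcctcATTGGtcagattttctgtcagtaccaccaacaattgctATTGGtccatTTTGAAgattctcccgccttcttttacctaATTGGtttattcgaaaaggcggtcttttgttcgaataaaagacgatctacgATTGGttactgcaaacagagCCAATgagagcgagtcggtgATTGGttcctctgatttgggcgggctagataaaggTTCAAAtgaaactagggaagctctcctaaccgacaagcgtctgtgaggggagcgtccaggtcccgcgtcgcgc
Nusap1: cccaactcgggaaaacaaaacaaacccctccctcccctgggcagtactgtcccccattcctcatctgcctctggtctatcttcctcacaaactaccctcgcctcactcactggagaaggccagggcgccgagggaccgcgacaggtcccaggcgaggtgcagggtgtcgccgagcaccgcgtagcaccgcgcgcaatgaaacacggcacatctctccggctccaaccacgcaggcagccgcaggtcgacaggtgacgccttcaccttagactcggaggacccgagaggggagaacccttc
Cdca8: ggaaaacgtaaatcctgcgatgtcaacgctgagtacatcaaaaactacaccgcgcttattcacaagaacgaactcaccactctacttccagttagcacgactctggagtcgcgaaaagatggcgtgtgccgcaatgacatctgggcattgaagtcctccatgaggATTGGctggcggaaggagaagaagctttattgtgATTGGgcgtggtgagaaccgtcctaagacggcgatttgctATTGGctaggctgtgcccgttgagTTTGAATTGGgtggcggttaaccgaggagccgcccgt
The Mki67, Top2a and Cdca8 windows held both elements, and the Nusap1 window held neither. Of all 32851 RefSeq promoter windows, 37.4% held CCAAT, 17.9% held TTTGAA and 6.95% held both on either strand. For 64 genes of the G2 and M phases, 49 matched a RefSeq entry with 53 windows, of which 77.4% held CCAAT, 71.7% held TTTGAA and 62.3% held both. For 46 S phase genes, 35 matched with 41 windows, of which 14.6% held TTTGAA and 26.8% held an E2F site spelled GGCGGGAA or TTTGGCGC, against 2.68% of all windows and 3.77% of the G2 and M windows. CCAAT was held by 56.1% of the S phase windows. For 66 histone genes, 52 matched with 53 windows, of which 88.7% held CCAAT and 41.5% held TTTGAA. Among the 12971 windows of genes that were tested here, 37.8% held CCAAT, 12.7% TTTGAA, 5.19% both and 4.9% an E2F site. The windows of 22 naive and memory genes (17 matched, 28 windows) held CCAAT in 17.9% and TTTGAA in 17.9%, and those of 16 inhibitory receptors (13 matched, 15 windows) in 20% and 26.7%. A match of letters is a description of the window and no measurement of binding.

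The libraries held 9746 (WT), 8665 (KO), 11060 (Young) and 9048 (Aged) barcodes with 68017515 to 85401443 UMIs each. The WT and KO libraries shared 20 barcode sequences, Young and Aged 145, KO shared 1 with each of Young and Aged, and the other pairs shared none. The targeted gene Bfar (chromosome 16, 13671858 to 13703612, plus strand, mm10) was read first as a check of the labels. In cycling cells its level was 27.3 CPM (UMIs of the gene per 1000000 UMIs of the sum) in WT, 15.2 in KO, 17.7 in Young and 21.3 in Aged, and in 0-UMI cells it was 33.3, 23.7, 23.8 and 28.2 CPM. Bfar was thus lower in KO than in WT in both classes but not absent. The KO level was close to that of Young (23.7 against 23.8 CPM in 0-UMI cells), so the level alone does not set KO apart from the other libraries. Which exons were deleted is not stated in the labels, so reads from outside them would still count.

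Barcodes in the cycling class carried more mRNA and more genes of other cell types than the 0-UMI cells. The median total was 15864.5 (WT), 16633.5 (KO), 10722 (Young) and 14228 UMIs (Aged) in cycling cells and 5790, 6394, 4054 and 5082.5 UMIs in 0-UMI cells. Barcodes with at least 5 UMIs of the markers of any 1 non-T cell type (tumour epithelium, fibroblast, dendritic, mast and other cells) made up 18.2%, 14.4%, 18.6% and 10.1% of cycling cells, against 3.27%, 2.12%, 5.31% and 3.38% of 0-UMI cells. Epithelial markers summed to 1176 CPM in cycling cells of WT, 366 in KO, 411 in Young and 102 in Aged, and dendritic cell markers to 387, 422, 5232 and 1088 CPM. These barcodes held less CD3 mRNA (843 to 1777 CPM over the 4 libraries) than the remaining cycling cells (2573 to 2746 CPM), which goes against a label of pure CD8 T cells. The comparison was therefore repeated without these barcodes, in what are here called the restricted cells, of which 610, 471, 964 and 997 were cycling. Shares of cycling cells and counts over lists of T cell state genes are given both ways, and most single-gene values for restricted cells. No doublet caller was run, and the part of doublets in these values was not tested.

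In the restricted cells the CD3, CD8 and other-lineage marker levels are set by the selection and do not check the label. The 3 CD3 genes summed to 2746, 2573, 2650 and 2689 CPM in cycling cells and 2940, 2900, 3238 and 3299 CPM in 0-UMI cells, in the order WT, KO, Young and Aged, which is used for every set of 4 values from here on. The 2 CD8 genes summed to 1456, 1291, 1609 and 1647 CPM against 1486, 1324, 1746 and 1883 CPM. Epithelial markers fell to 8.14, 4.08, 4.93 and 3.22 CPM and dendritic markers to 22.7, 30.1, 54.5 and 44.4 CPM. In these cycling cells 1 to 3 of the 6 epithelial markers were at 0, Cldn4 in each library, as were 1 to 4 of the 6 fibroblast markers, Pdgfra in each. Genes of γδ T cells remained and were higher in cycling cells, at 53.5, 23.3, 139 and 139 CPM against 33.5, 21.2, 50.4 and 69.6 CPM in 0-UMI cells. Their part in the results below was not tested.

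Cycling cells made up a smaller share of CD3- and CD8-positive cells in WT and KO than in Young and Aged. The share was 8.32% in WT (746 of 8966 cells, exact 95% binomial interval 7.76 to 8.91), 6.75% in KO (550 of 8153, 6.21 to 7.31), 12.1% in Young (1185 of 9803, 11.4 to 12.7) and 13.4% in Aged (1109 of 8252, 12.7 to 14.2). In restricted cells it was 7.18%, 5.99%, 10.7% and 12.7%. The intervals cover counting error only, and with 1 pooled library a group no difference between groups has a replicate check.

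The share was lower in KO than in WT, with a ratio of 0.811 (interval 0.725 to 0.906), and it was 0.835 (0.739 to 0.943) in restricted cells. The share in Aged was 1.11 times that in Young (1.02 to 1.21), and 1.19 times (1.08 to 1.3) in restricted cells. A deeper cell passes a limit of 4 UMIs more easily, so each barcode was also thinned to 2000 UMIs with a limit of 2 UMIs. The thinned shares were 5.89%, 5.04%, 9.3% and 9.37%, with a KO to WT ratio of 0.857 (0.751 to 0.977) and an Aged to Young ratio of 1.01 (0.912 to 1.11). The lower share in KO thus stayed outside counting error at equal depth, and the higher share in Aged did not.

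**Figure D1:**
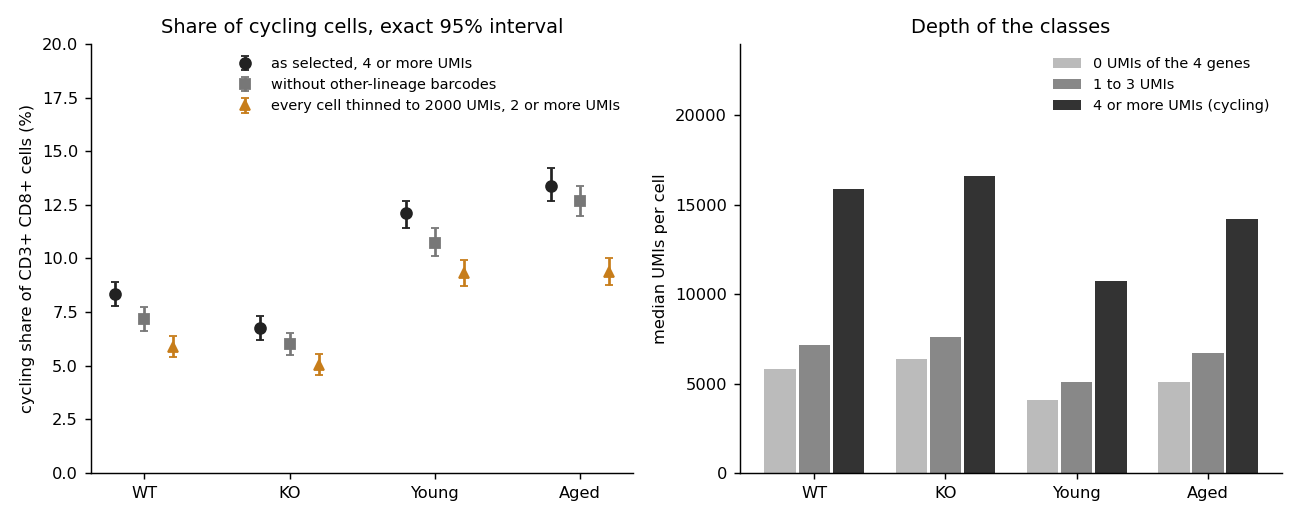
Left, cycling cells as a percentage of CD3- and CD8-positive cells in each library, with exact 95% binomial intervals, for the gate as stated, for restricted cells and for barcodes thinned to 2000 UMIs. Right, median total UMIs per barcode of cells with 0, 1 to 3 and at least 4 UMIs of the 4 gate genes: cycling cells held 10722 to 16633.5 UMIs and 0-UMI cells 4054 to 6394.

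Most cycling cells lay well above the limit. Their median number of UMIs of the 4 genes was 21, 23, 13 and 15. Just inside it, 89, 80, 77 and 82 cells held 4 UMIs, and just outside it, 165, 159, 137 and 161 cells held 3 UMIs. The median total of these cells was 11527, 13941.5, 8805 and 10795 UMIs at 4 UMIs and 8974, 10193, 7763 and 9274 UMIs at 3 UMIs, between those of the 0-UMI and cycling classes.

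As the selection implies, the other cell cycle genes moved with the gate, and their counts are a description that supports nothing further. In restricted cycling cells Mki67 stood at 496, 523, 520 and 478 CPM, Top2a at 646, 710.0, 458 and 430 CPM, Nusap1 at 169, 169, 117 and 110.2 CPM and Cdca8 at 200, 185, 198 and 178 CPM, and all 4 are at 0 in the 0-UMI cells by definition. All 46 S phase genes and all 64 G2 and M genes were higher, with median log2 fold changes of 2.59 and 4.37, as were 58 of 59 histone genes that could be tested, with a median of 3.66. Among S phase genes the change ran from 0.58 for Rpa2 (single-strand DNA binding) to 5.89 for E2f8 (a repressor of the E2F family), and among G2 and M genes from 0.97 for Cks2 (a cyclin-dependent kinase subunit) to 7.87 for Hmmr (a spindle protein).

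The 4 gate genes belong to the late cycle. At 2000 UMIs a barcode, cycling cells held a median of 9, 10, 11 and 11 UMIs of S phase genes and 28, 29, 32 and 27 UMIs of G2 and M genes, against 2 UMIs and 4 to 5 UMIs in 0-UMI cells. S phase UMIs outnumbered those of G2 and M in 7.96%, 9.27%, 7.46% and 11.4% of cycling cells and in 13.6%, 9.28%, 13.7% and 17.2% of 0-UMI cells, so the share in KO was close in both classes. The lists differ in length, with 46 and 64 genes, and no phase was assigned to single cells. Among 0-UMI cells 22.7% to 27.1% held at least 10 phase UMIs at this depth, so the comparison class is not free of cells with cell cycle mRNA, and free RNA in the droplets was not separated from it.

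UMIs were summed by library and class and tested gene by gene with edgeR's quasi-likelihood test with the library as a block, called at a Benjamini-Hochberg adjusted p under 0.05. The p-values measure the spread of the class difference over these 4 libraries. For the gate as stated, 3444 of 13341 genes were higher in cycling cells (25.8%) and 4099 lower (30.7%). In restricted cells 3061 of 12234 genes were higher (25.0%) and 3982 lower (32.5%). Restricted cycling cells were also paired with a 0-UMI cell of their own library with a total within 10% of their own. Cycling cells left without such a partner were dropped. In these pairs 2071 of 10553 genes were higher (19.6%) and 2074 lower (19.7%). That comparison, here called depth-matched, held 483, 391, 762 and 714 cells a class, out of 610, 471, 964 and 997 restricted cycling cells. It thus covers a part of the restricted cells of each class, and its 0-UMI cells were chosen for totals near those of cycling cells. Depth and the choice of 0-UMI cells change together in this comparison, and their parts were not tested. The median log2 fold change over all genes was -0.08, -0.08 and -0.04 in these comparisons, and +0.08 as plain CPM ratios, so differences under about that size depend on the scaling.

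Naive and memory genes made up a smaller part of the UMIs of cycling cells. Inhibitory receptor genes had mixed calls in restricted cells and no higher call after depth matching. Outside the depth-matched comparison, levels are relative to total UMIs, which were higher in cycling cells, and do not give amounts per cell. Of 36 listed exhausted or memory genes, 1 was higher and 22 were lower with the gate as stated (median log2 fold change -0.40), 4 were higher and 19 lower in restricted cells (median -0.20), and 2 were higher and 18 lower after depth matching (median -0.28). Over all genes, 25.8% were higher and 30.7% lower with the gate as stated, 25.0% and 32.5% in restricted cells, and 19.6% and 19.7% depth-matched. These shares go beside the counts of every list below. Summed over the class, restricted cycling cells held Ctla4, Pdcd1, Lag3, Tox and Gzmb transcripts, with Tcf7, Il7r and Bcl2 at lower but measurable CPM. These sums do not show which transcripts single cells held together.

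The naive and memory list had the most uniform direction among the T cell state lists. Of its 22 genes 0 were higher and 20 lower with the gate as stated (median -1.05), 1 was higher and 20 lower in restricted cells (median -0.82), and 0 were higher and 15 lower after depth matching (median -0.45). The exception in restricted cells was Dapl1, a gene of quiescent T cells, with a log2 fold change of 0.54. With 1 library left out at a time, 19 to 20 of the 22 were lower in restricted cells and 11 to 14 after depth matching.

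Il7r, the receptor chain for the survival cytokine IL-7 (chromosome 15, 9505788 to 9530176, minus strand), had the lowest fold change of the list in restricted cells. It stood at 177, 250.6, 59.7 and 56.2 CPM in cycling cells and 531, 638, 142 and 118 CPM in 0-UMI cells. Cycling cells were below 0-UMI cells in each library, and WT and KO were above Young and Aged in both classes. The log2 fold change was -1.41 ± 0.09 (standard error, edgeR, adjusted p = 2.1e-07), and -0.89 ± 0.06 after depth matching (adjusted p = 6.5e-08). Il7r, Tcf7 and Bcl2 were also lower with the gate as stated (-1.62 ± 0.15, -1.29 ± 0.10 and -1.23 ± 0.08).

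Tcf7, which encodes the progenitor and memory factor TCF1 (chromosome 11, 52252371 to 52283014, minus strand), was also lower in cycling cells. The order of its libraries was not that of Il7r. Tcf7 stood at 55.7, 60.9, 89.6 and 39.9 CPM in restricted cycling cells and 108, 100.1, 152 and 101 CPM in 0-UMI cells. Every library was lower in its cycling cells. Young had the highest level in both classes, and Aged had the lowest cycling level. The log2 fold change was -1.02 ± 0.09 (edgeR, adjusted p = 2.8e-06), and -0.50 ± 0.09 (adjusted p = 0.00061) after depth matching.

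Bcl2, the survival factor maintained by IL-7, stood at 187, 151, 88.2 and 89.8 CPM in restricted cycling cells and 328, 244, 175 and 167 CPM in 0-UMI cells, with a log2 fold change of -0.93 ± 0.05 (edgeR, adjusted p = 4.4e-08). Lef1, the partner of TCF1, stood at 48.1, 36.2, 48.7 and 55.7 CPM against 73.4, 59.3, 89.8 and 79.7 CPM (log2 fold change -0.75 ± 0.07). Ccr7, a chemokine receptor for lymph node homing, had a log2 fold change of -0.45, and of -1.29 after depth matching. Slamf6, a receptor of progenitor cells, was lower by -0.82 and -0.28. These 4 were called lower in restricted and in depth-matched cells, as were Foxp1 (a quiescence factor, -0.91 and -0.54), Satb1 (a chromatin organiser of T cells, -0.82 and -0.76), Cd27 (a costimulatory receptor, -0.59 and -0.40) and Cxcr5 (a chemokine receptor, -0.82 and -1.27). Cxcr5 lost its call without Aged in restricted cells (adjusted p = 0.068) and without WT after depth matching (adjusted p = 0.062), and Slamf6 lost its depth-matched call without KO (adjusted p = 0.15).

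The egress genes did not keep their call after depth matching. S1pr1, the sphingosine phosphate receptor for exit from tissue, stood at 41.1, 52.6, 70.9 and 38.5 CPM in restricted cycling cells and 128, 123, 121 and 99.2 CPM in 0-UMI cells (log2 fold change -1.32 ± 0.12, edgeR, adjusted p = 5.3e-06). Its depth-matched fold change was -0.40 ± 0.16 (adjusted p = 0.064). Klf2, the factor that drives S1pr1, changed from -0.78 ± 0.14 to 0.06 ± 0.17 (adjusted p = 0.79), and its depth-matched ratio of cycling to 0-UMI cells was 0.587 in WT, 1.08 in KO, 1.59 in Young and 1.32 in Aged. Without WT the depth-matched change of Klf2 was 0.38 ± 0.10 (adjusted p = 0.0075), and without Young or Aged that of S1pr1 was -0.56 ± 0.17 (adjusted p = 0.023) or -0.58 ± 0.16 (adjusted p = 0.013). The memory factor Id3 likewise moved from -0.57 ± 0.13 to 0.08 ± 0.17.

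**Figure D2:**
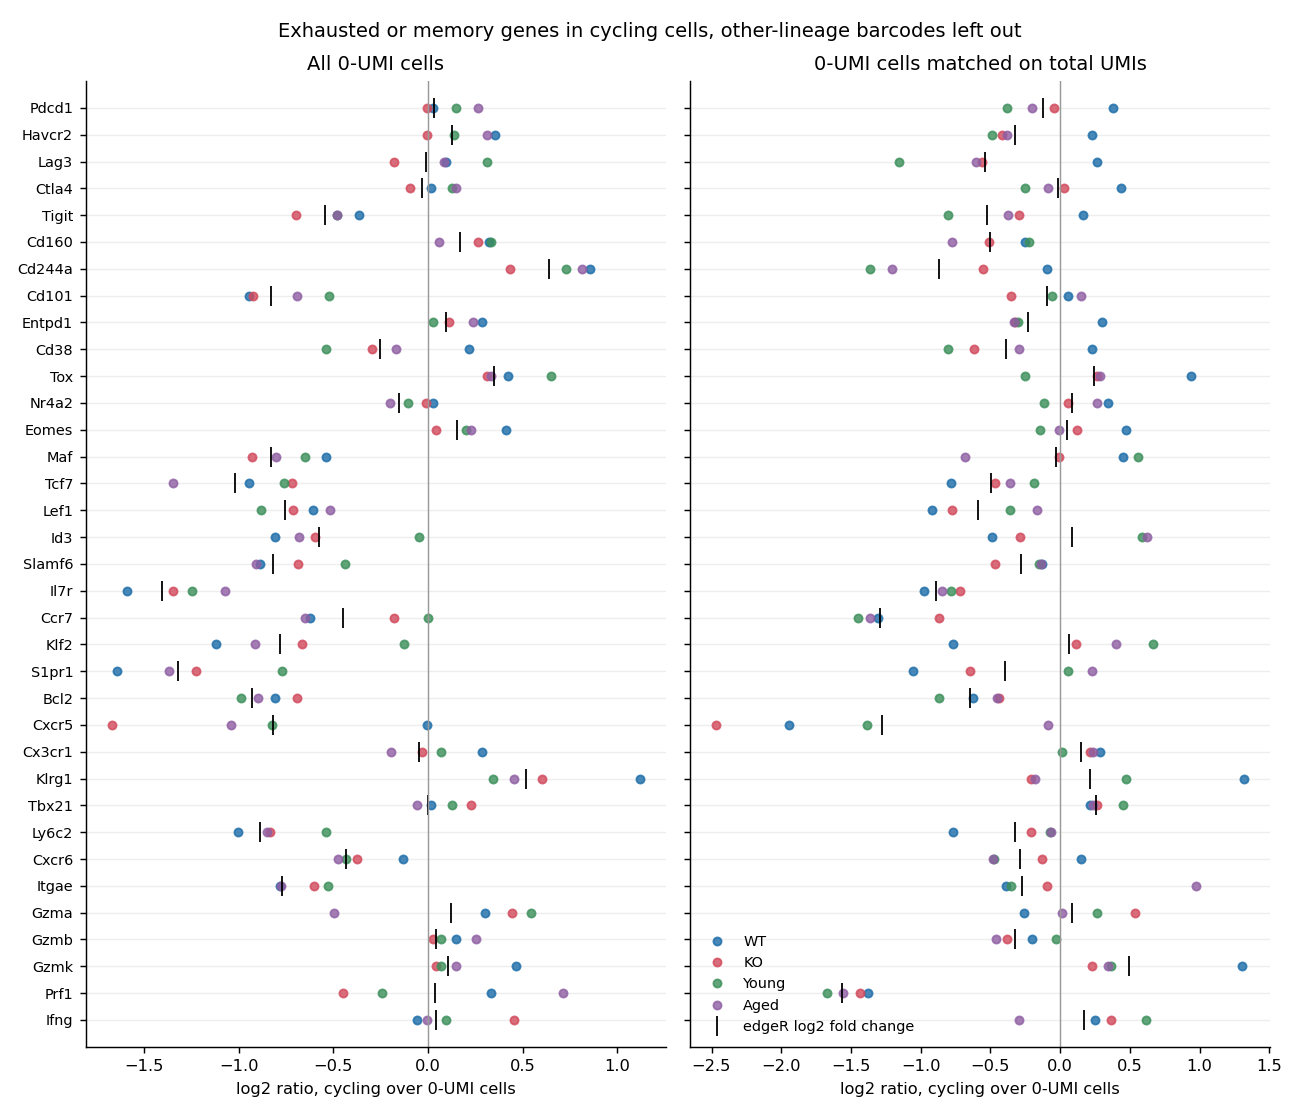
Log2 ratio of cycling to 0-UMI CPM for 35 of the 36 exhausted or memory genes in restricted cells, 1 point per library, with the edgeR log2 fold change as a tick. Left, all 0-UMI cells; right, 0-UMI cells matched on total UMIs. Memory genes such as Il7r, Tcf7 and Bcl2 lie below 0 in all 4 libraries on both sides, and Pdcd1 and Ctla4 lie around 0.

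Of 16 inhibitory receptor genes, 0 were higher and 8 lower with the gate as stated (median -0.31), 3 were higher and 7 lower in restricted cells (median -0.02), and 0 were higher and 10 lower after depth matching (median -0.36). Over all genes 25.0% were higher and 32.5% lower in restricted cells, and 19.6% and 19.7% after depth matching. Pdcd1, which encodes PD-1 (chromosome 1, 94038305 to 94052553, minus strand), stood at 309, 326, 263 and 526 CPM in restricted cycling cells and 303, 327, 236 and 437 CPM in 0-UMI cells. The classes were close in WT and KO, and cycling cells were somewhat higher in Young and Aged. The log2 fold change was 0.03 ± 0.07 (edgeR, adjusted p = 0.72), and -0.12 ± 0.08 (adjusted p = 0.29) after depth matching. A p that misses the threshold does not show equal levels.

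Havcr2, which encodes TIM-3 of terminally exhausted cells, stood at 75.4, 63.5, 45.6 and 127 CPM in restricted cycling cells and 58.8, 63.8, 41.3 and 103 CPM in 0-UMI cells (log2 fold change 0.13 ± 0.07, edgeR, adjusted p = 0.16). Lag3, an inhibitory receptor for MHC class II, stood at 142, 99.3, 58.0 and 185 CPM against 133, 112, 46.6 and 175 CPM (-0.01 ± 0.08, adjusted p = 0.94). Ctla4, which competes with Cd28 for its ligands, stood at 445, 306, 114 and 302 CPM against 439, 327, 105 and 271 CPM (-0.03 ± 0.07, adjusted p = 0.71). Ctla4 was called lower with the gate as stated (-0.34 ± 0.11, adjusted p = 0.037), where Pdcd1 (-0.26 ± 0.13), Havcr2 (-0.02 ± 0.14) and Lag3 (-0.28 ± 0.12) were not called.

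Depth matching moved Havcr2 to -0.32 ± 0.09 (edgeR, adjusted p = 0.013) and Lag3 to -0.54 ± 0.14 (adjusted p = 0.0065), and Ctla4 stayed at -0.02 ± 0.08. The WT library stood apart here. Its depth-matched ratio of cycling to 0-UMI cells was 1.3 for Pdcd1, 1.17 for Havcr2, 1.2 for Lag3 and 1.35 for Ctla4, whereas KO, Young and Aged had 0.769 to 0.968 for Pdcd1, 0.714 to 0.767 for Havcr2, 0.449 to 0.677 for Lag3 and 0.838 to 1.02 for Ctla4. Without WT, the depth-matched change was -0.25 ± 0.06 for Pdcd1 (adjusted p = 0.0069), -0.46 ± 0.07 for Havcr2, -0.78 ± 0.09 for Lag3 and -0.14 ± 0.06 for Ctla4 (adjusted p = 0.11), and 12 of the 16 receptors were lower. Without KO, Young or Aged, 6, 6 and 7 were lower, and Havcr2 lost its call each time (adjusted p = 0.062 to 0.08). In all restricted cells Havcr2 was called higher without KO (0.22 ± 0.06, adjusted p = 0.016).

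Other receptor genes were called in restricted cells. Tigit, a receptor for nectin family ligands, was lower at 10.9, 8.04, 166 and 215 CPM against 14, 13, 233 and 300.0 CPM, with log2 fold changes of -0.54 ± 0.06 and, depth-matched, -0.52 ± 0.10. Cd244a, which encodes 2B4, was higher in restricted cells at 0.64 ± 0.11 and lower after depth matching at -0.87 ± 0.19, and Cd160 went from 0.17 ± 0.06 to -0.50 ± 0.09 (edgeR, each adjusted p under the threshold). Lilrb4a, an inhibitory receptor of activated T and myeloid cells, was lowest at -1.11, and at -0.88 depth-matched. The ectoenzyme genes of exhausted cells stood at 39.5, 27.1, 41.7 and 77.6 CPM for Entpd1 (CD39; log2 fold change 0.09 ± 0.06, not called) and at -0.25 ± 0.10 for Cd38, which was called lower, also depth-matched (-0.39 ± 0.13). Cd38 lost its call in both forms without KO, Young or Aged, and Cd160 lost its restricted call without WT, KO or Young.

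Among 15 exhaustion transcription factors, 0 were higher and 10 lower with the gate as stated (median -0.33), 3 were higher and 6 lower in restricted cells (median -0.09), and 1 was higher and 2 were lower after depth matching (median 0.01). The shares over all genes were 25.0% higher and 32.5% lower in restricted cells, and 19.6% and 19.7% after depth matching. Tox, the factor that sets the exhausted chromatin state, stood at 85.2, 81.4, 96.3 and 158 CPM in restricted cycling cells and 63.5, 65.8, 61.3 and 125 CPM in 0-UMI cells. It was higher in the cycling cells of each library (log2 fold change 0.35 ± 0.07, edgeR, adjusted p = 0.0021), but not called with the gate as stated (0.01 ± 0.11) or after depth matching (0.24 ± 0.12, adjusted p = 0.13; without Young 0.41 ± 0.11, adjusted p = 0.0088). Maf, a factor of exhausted and regulatory cells, went from -0.83 ± 0.08 to -0.03 ± 0.14. The single factor called higher after depth matching was Nr4a1, an early target of T cell receptor signalling, at 0.68 ± 0.08 (adjusted p = 1.4e-05), with ratios of 1.46, 1.4, 1.94 and 1.87. In all restricted 0-UMI cells the Nr4a1 change was -0.09 ± 0.06 (adjusted p = 0.23).

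Effector genes did not move as a group. Of 17 cytotoxic effector genes 3 were higher and 8 lower with the gate as stated (median -0.23), 3 were higher and 7 lower in restricted cells (median 0.04), and 2 of 16 were higher and 8 lower after depth matching (median -0.16). All genes together had 25.0% higher and 32.5% lower in restricted cells, and 19.6% and 19.7% after depth matching. Gzmb, which encodes granzyme B, stood at 1163, 669.8, 1116 and 2212 CPM in restricted cycling cells and 1048, 659, 1066 and 1855 CPM in 0-UMI cells (0.04 ± 0.06, edgeR, adjusted p = 0.54; -0.23 ± 0.10 with the gate as stated, not called), and it was lower after depth matching (-0.32 ± 0.06, adjusted p = 0.0011). Prf1, for perforin, changed from 0.04 ± 0.16 to -1.56 ± 0.06 after depth matching, with ratios of 0.314 to 0.385. Gzmc, a granzyme of strongly activated cells, was higher at 1.51 ± 0.16 in restricted cells and lower at -1.24 ± 0.09 after depth matching.

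Gzmk, the granzyme of early exhausted and memory cells, was higher after depth matching (0.49 ± 0.12, edgeR, adjusted p = 0.0045) with ratios of 2.47, 1.17, 1.29 and 1.27, and not called in restricted cells (0.10 ± 0.07). Klrg1, a marker of short-lived effector cells, was higher in restricted cells at 17.7, 10.5, 32.9 and 52.8 CPM against 8.15, 6.91, 25.9 and 38.7 CPM (0.52 ± 0.10, adjusted p = 0.001), and not called after depth matching (0.21 ± 0.17). Tbx21, which encodes T-bet, was not called in restricted cells (0.00 ± 0.06) and higher after depth matching (0.25 ± 0.07, adjusted p = 0.014; without Young 0.18 ± 0.09, adjusted p = 0.14). Ifng, for interferon gamma, was not called in either (0.04 ± 0.07 and 0.17 ± 0.11), but it was higher after depth matching without Aged (0.36 ± 0.08, adjusted p = 0.0039).

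Ccl5, a chemokine of effector and memory CD8 T cells (chromosome 11, 83525778 to 83530518, minus strand), was among the genes with the lowest fold changes. It stood at 1566, 1453, 2104 and 2181 CPM in restricted cycling cells and 4666, 4535, 7832 and 9138 CPM in 0-UMI cells. Cycling cells were lower in each library (log2 fold change -1.88 ± 0.06, edgeR, adjusted p = 8.2e-10), also after depth matching (-0.66 ± 0.06, adjusted p = 1e-06) and with the gate as stated (-2.17 ± 0.06). Of 12 tissue residency genes, 1 was higher and 7 were lower with the gate as stated, and 0 were higher and 8 lower in restricted cells (66.7%, median -0.46, against 32.5% lower over all genes). After depth matching 0 were higher and 2 lower (16.7%, against 19.7% over all genes), among them Cxcr6, a receptor that keeps T cells in tissue (-0.43 ± 0.05 and -0.29 ± 0.08; the latter lost its call without Young or Aged). Itgae, the integrin CD103, was lower at -0.77 ± 0.08 in restricted cells and not called after depth matching (-0.27 ± 0.11; without Aged -0.33 ± 0.10, adjusted p = 0.02).

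Another 6 of the 36 genes complete the list. Cd101, an inhibitory receptor of terminal cells, stood at 16.5, 22.5, 32 and 20.2 CPM in restricted cycling cells against 31.7, 42.7, 46 and 32.5 CPM in 0-UMI cells (-0.83 ± 0.10), and was not called after depth matching (-0.10 ± 0.09). Ly6c2, a surface protein of effector and memory cells, was lower in both forms (-0.89 ± 0.08 and -0.33 ± 0.10), and its matched call was lost without KO (edgeR, adjusted p = 0.071). Nr4a2, a receptor-induced nuclear receptor, was lower in restricted cells (-0.15 ± 0.05, and 0.08 ± 0.07 matched). That call was lost without KO, Young or Aged (edgeR, adjusted p = 0.059, 0.14 and 0.21). Eomes (0.15 ± 0.07), Cx3cr1, the fractalkine receptor of effector cells (-0.05 ± 0.08), and Gzma (0.12 ± 0.13) were not called in restricted cells or after matching. Without KO, Eomes was called higher in restricted cells (0.23 ± 0.06, edgeR, adjusted p = 0.015). Gzma was called higher in restricted cells without Aged (0.37 ± 0.06, edgeR, adjusted p = 9.7e-05). Its cycling level was above the 0-UMI level in WT, KO and Young and below it in Aged.

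Shares of cells with a transcript, taken at 2000 UMIs a barcode, were read for Tcf7, Il7r and Pdcd1. Tcf7 was detected in 8.26%, 9.34%, 17.2% and 8.84% of restricted cycling cells and in 18.1%, 16.6%, 24.2% and 16.1% of 0-UMI cells. Without thinning the shares were 33.9%, 39.9%, 44.4% and 24.4% against 37.1%, 37.6%, 40.8% and 31.8%, at median depths of 10046 to 15753 and 4169 to 6373 UMIs. Free RNA was gauged from barcodes outside the CD3 and CD8 gate with at least 5 epithelial or fibroblast UMIs (175, 28, 168 and 132 barcodes, median depths 20925.5 to 36306.5 UMIs), of which 0.571%, 0%, 1.19% and 0% held Tcf7 after thinning. Without thinning 4%, 0%, 3.57% and 1.52% did. These barcodes lack UMIs of CD3 or of CD8 by selection and were deeper than the T cells. The thinned shares may therefore understate free RNA in T cell barcodes.

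Il7r was detected in 22.3%, 29.9%, 10.4% and 10.7% of thinned cycling cells and in 44.3%, 53.6%, 19.6% and 16.4% of 0-UMI cells (unthinned 52.7%, 67.7%, 31.5% and 30.4% against 59.3%, 71.5%, 32.3% and 30.4%), with a background of 1.14% in WT and 0% in the others. Pdcd1 was detected in 42.1%, 41%, 31.7% and 48.1% of thinned cycling cells and in 37.8%, 37.9%, 27.6% and 39.1% of 0-UMI cells (unthinned 78.7%, 81.5%, 55% and 81.6% against 60.4%, 60.8%, 39.6% and 56.5%), with a background of 1.14% in WT and 0% in the others. Unthinned, the background was 9.14%, 7.14%, 2.38% and 0.758% for Il7r and 6.29%, 14.3%, 4.17% and 5.3% for Pdcd1. A thinned count of 0 allows a share of up to 12.3% among the 28 background barcodes of KO and up to 2.76% in the other libraries. At equal depth, fewer cycling than 0-UMI cells held Tcf7 or Il7r in each library, and slightly more held Pdcd1. For Pdcd1 this differs from the depth-matched ratios, which were below 1 in KO, Young and Aged.

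Turned around, the cycling share, at the thinned limit of 2 UMIs, was read within cell states set by transcripts at 2000 UMIs. Among restricted cells with Tcf7 or Il7r and none of Pdcd1, Havcr2 and Lag3, 3.3% (exact 95% interval 2.62 to 4.1), 3.2% (2.55 to 3.97), 6.9% (5.88 to 8.04) and 6.54% (5.23 to 8.06) were cycling. Among cells with Pdcd1, Havcr2 or Lag3 and neither memory gene, 7.85% (6.84 to 8.95), 6.72% (5.61 to 7.96), 10.3% (9.02 to 11.6) and 11.2% (10.2 to 12.3) were cycling. Between these states, the one with inhibitory receptors had the higher share in each library, with intervals apart. In the background barcodes 2.86%, 14.3%, 2.38% and 2.27% held a UMI of Pdcd1, Havcr2 or Lag3, against 50.4%, 49.1%, 35.7% and 56.3% of restricted cells. The KO background of 4 in 28 barcodes (interval 4.03 to 32.7) came mainly from Havcr2, held by 10.7% of them and by 10.2% of KO cycling cells, so Havcr2 in KO could not be told from background at this depth. With Pdcd1 as the only receptor gene, a setting chosen after seeing the data, 8.04% (6.88 to 9.34), 7.01% (5.72 to 8.48), 9.99% (8.64 to 11.5) and 11.1% (9.92 to 12.3) of cells with Pdcd1 and neither memory gene were cycling. Of cells with a memory gene and no Pdcd1, 3.38% (2.74 to 4.13), 3.16% (2.55 to 3.86), 7.13% (6.13 to 8.24) and 6.36% (5.16 to 7.74) were.

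Cells with transcripts of both kinds had cycling shares of 3.25%, 2.99%, 7.79% and 5.52%, close to the memory-only state, and cells with neither kind 7.06%, 6.97%, 9.76% and 8.44%. The intervals of cells with neither kind overlapped those of the state with inhibitory receptors alone in WT (5.92 to 8.35), KO (5.72 to 8.39) and Young (8.76 to 10.8). In Aged they lay apart (7.28 to 9.7 against 10.2 to 12.3). Higher shares thus went with absence of Tcf7 and Il7r transcripts, also where no receptor transcript was detected. Of the cycling cells, 43.9%, 33.6%, 29.9% and 58% were in the state with inhibitory receptors alone and 17.1%, 21.9%, 20.2% and 11.5% in the state with memory genes alone. Of all restricted cells those states held 30.7%, 23.4%, 26.1% and 47.5%, and 28.4%, 32%, 26.2% and 16.2%. The state with both kinds held 11.7%, 16.4%, 8.33% and 5.25% of the cycling cells and 19.7%, 25.7%, 9.58% and 8.75% of all restricted cells.

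**Figure D3:**
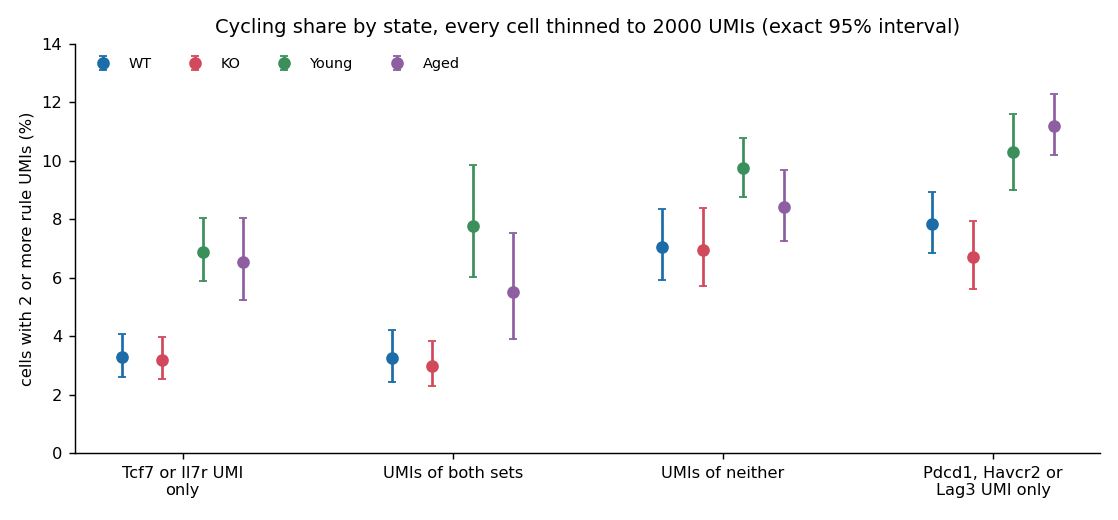
Percentage of cells that were cycling in each of 4 states set by transcripts detected at 2000 UMIs a barcode (memory genes Tcf7 or Il7r, inhibitory receptor genes Pdcd1, Havcr2 or Lag3), restricted cells, per library, with exact 95% binomial intervals. In each library the state with Tcf7 or Il7r alone lies below the state with inhibitory receptors alone, 3.3% against 7.85% in WT. The state with neither set lies near the latter in WT (7.06%), KO and Young.

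Among biosynthesis lists, the calls in restricted cells were mostly higher. Fewer genes were called higher after depth matching, where glycolysis had no higher call. In the gate as stated, 27 of 27 nucleotide, 20 of 20 mevalonate, 21 of 33 oxidative phosphorylation and 10 of 18 glycolysis genes were higher, and 0, 0, 1 and 3 lower. All 27 genes of one-carbon metabolism and nucleotide synthesis were higher in restricted cells (median 1.03), and 16 were higher and 2 lower after depth matching (median 0.47). Rrm2, the ribonucleotide reductase subunit of dividing cells, led at 5.51 ± 0.08, from 3.09, 3.05, 7.86 and 6.54 CPM in 0-UMI cells to 164, 179, 313 and 299 CPM in cycling cells. The serine synthesis gene Psat1 stood at 42.7, 38.2, 71.0 and 78.9 CPM against 11.3, 10.1, 20.7 and 23.2 CPM (1.76 ± 0.06, and 0.80 ± 0.08 depth-matched), and mitochondrial Mthfd2 was higher by 1.43 ± 0.06 and 1.10 ± 0.09.

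All 20 genes of the mevalonate and sterol pathway were higher in restricted cells (median 0.69), and 11 were higher and 0 lower after depth matching (median 0.30). Fdps, which makes farnesyl diphosphate, led at 147, 90.9, 21.9 and 47.0 CPM against 41.5, 25.9, 8.88 and 16.5 CPM (1.56 ± 0.07, and 0.44 ± 0.09 depth-matched). Fdft1, squalene synthase, was higher by 1.23 ± 0.07 and 0.70 ± 0.10. Of 33 oxidative phosphorylation genes 25 were higher and 1 lower in restricted cells (median 0.29), and 13 were higher and 4 lower after depth matching (median 0.07), with Uqcrh of complex III lower in both (-0.47 and -0.32). Of 18 glycolysis genes 11 were higher and 1 lower (median 0.41), but 0 were higher and 3 lower after depth matching (median 0.00).

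Among 22 cell cycle inhibitors and quiescence genes, 7 were higher and 12 lower in restricted cells (median -0.31), and 8 of 21 were higher and 4 lower after depth matching (median 0.04). Cdkn2c, the CDK4 and CDK6 inhibitor p18, stood at 45.9, 34.4, 40.4 and 45.7 CPM in cycling cells and 11.9, 10.1, 11.6 and 11.5 CPM in 0-UMI cells (1.80 ± 0.07, and 2.21 ± 0.09 depth-matched). Cdkn1a, the p53 target p21, was higher at 115, 149, 161 and 151 CPM against 56.3, 68.3, 71.5 and 76.6 CPM (0.99 ± 0.06 and 1.24 ± 0.12). Cdkn1b, the quiescence inhibitor p27, was lower (-1.0 ± 0.06 and -0.39 ± 0.07), as was Btg1, an antiproliferative gene of resting lymphocytes (-1.03 ± 0.05 and -0.26 ± 0.05). Of 20 genes of G1 and growth, 13 were higher and 6 lower in restricted cells (median 0.48) and 10 of 19 were higher and 5 lower after depth matching (median 0.20), with Ccne1, cyclin E1, higher (2.55 ± 0.10 and 2.47 ± 0.11) and Ccnd2, cyclin D2, lower (-0.88 ± 0.06 and -0.75 ± 0.06).

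All 32 genes of the type I interferon response were lower in restricted cells (median -0.72), and 30 with the gate as stated, but 1 was higher and 5 were lower after depth matching (median -0.08). Slfn5, a Schlafen family gene linked to T cell quiescence, stood at 9.66, 12.5, 2.65 and 1.14 CPM in cycling cells and 80.5, 78.5, 24.4 and 13.4 CPM in 0-UMI cells (-3.10 ± 0.10, and -2.33 ± 0.16 depth-matched). Ifit1, an antiviral RNA sensor, was lower by -1.88 ± 0.07 and -0.79 ± 0.11, and Isg15, a ubiquitin-like modifier, turned from -0.53 ± 0.06 to 0.21 ± 0.05. Of 19 apoptosis regulators 4 were higher and 11 lower in restricted cells (median -0.40), and 3 were higher and 11 lower after depth matching (median -0.19). The death gene Bcl2l11, for BIM, was lower with Bcl2 (-0.88 ± 0.09 and -0.45 ± 0.06).

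The other lists had mixed directions. In restricted cells 3 of 17 costimulation and activation receptors were higher and 10 lower (median -0.50; 0 and 9 depth-matched). Tnfrsf9, the receptor 4-1BB, was higher at 0.42 ± 0.08 and lower at -0.58 ± 0.08 after depth matching. For 18 cytokines and chemokines 1 was higher and 10 lower (median -0.34; 1 and 8 of 17 depth-matched). Short-lived effector genes had 1 of 11 higher and 6 lower (median -0.25; 1 and 4 of 10 depth-matched), DNA damage and p53 response genes 9 of 21 higher and 5 lower (median 0.07; 7 and 2), and immediate early and heat shock genes 3 of 21 higher and 14 lower (median -0.36; 8 and 1).

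**Figure D4:**
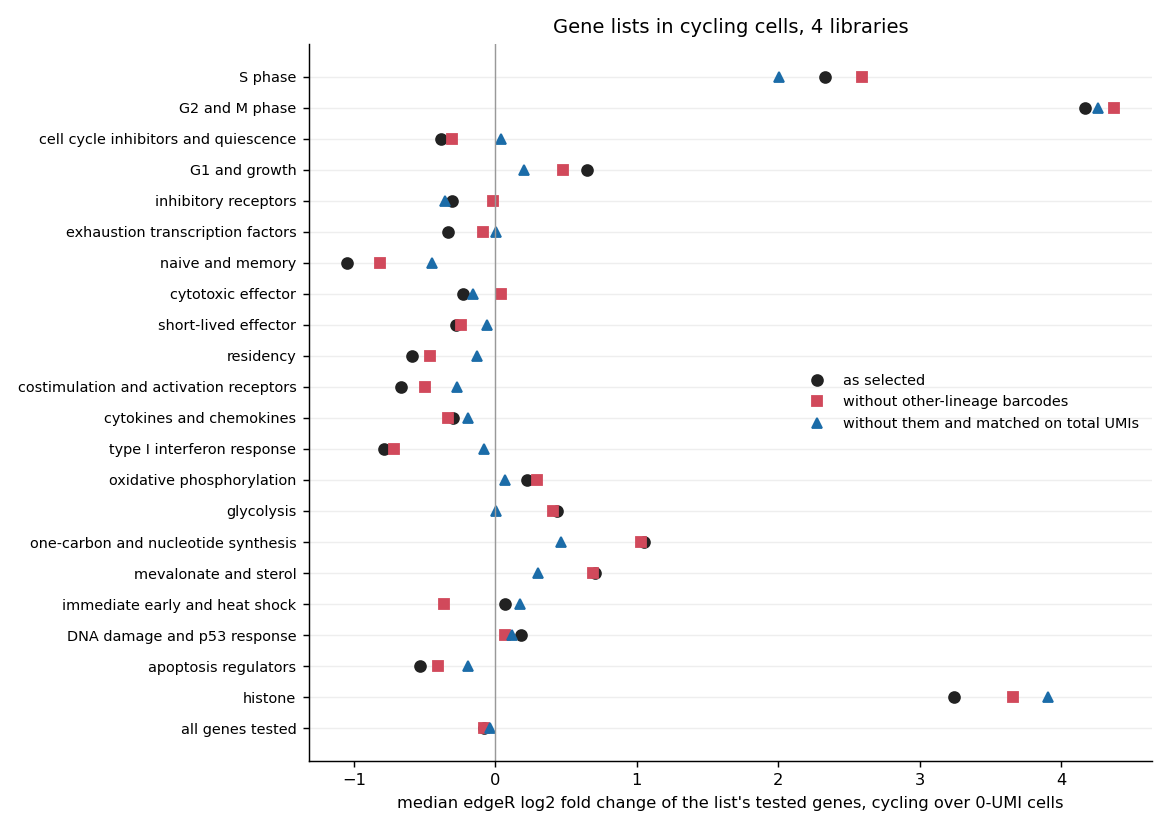
Median edgeR log2 fold change of cycling over 0-UMI cells for each gene list with the gate as stated, in restricted cells, and in restricted cells matched on total UMIs. The naive and memory list lies at -1.05, -0.82 and -0.45, the mevalonate list stays above 0, and the type I interferon list moves from -0.72 in restricted cells to -0.08 after depth matching.

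Outside the cell cycle lists, the 10 largest fold changes with the gate as stated again belonged mostly to genes of chromosome duplication and separation. They were Hrob, which loads the MCM8 and MCM9 helicase, at 7.47 ± 0.30, Espl1, the separase, at 7.16 ± 0.29, Lrr1, Ankle1, Esco2 (the S phase cohesin acetyltransferase, 6.99 ± 0.13), Kif14, Iqgap3, Ska1, Shcbp1 and Aunip. Their levels in cycling cells ran from 5.97 CPM for Ankle1 in WT to 68.8 CPM for Esco2 in KO. After depth matching the 10 stood between 6.08 and 8.17 on the log2 scale in restricted cells. At the other end stood Tcp11l2 (-3.18 ± 0.13), Il17a, Slfn5, Mapk8ip2, Ccl5, Trim30c, Kdm5b (a histone H3K4 demethylase, -1.95 ± 0.18), Ifit1, Hey1 and Dmrta1. Tcp11l2 stood at 10.4, 8.74, 11.7 and 6.65 CPM in cycling cells and 61.0, 57.6, 107 and 77.9 CPM in 0-UMI cells. Il17a, the cytokine of type 17 cells, and Trim30c were no longer called after depth matching (-0.39 ± 0.40 and -0.22 ± 0.30).

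Within cycling cells, KO was compared with WT gene by gene as a ratio of CPM, with 1 library each and so with no test. Genes with 50 UMIs or more in the pair of libraries were measured, and a ratio of 1.5 times or more in either direction was counted. Intervals on ratios are exact and cover counting error only. With the gate as stated, 296 of 11208 genes were higher in KO (2.64%) and 1560 lower (13.9%). In restricted cells 223 of 9496 were higher (2.35%) and 223 lower (2.35%). With the gate as stated the smallest ratios belonged to genes such as Gpx2, an epithelial glutathione peroxidase, at 173 CPM in WT and 0.178 in KO. In restricted cells it held 1 UMI in each library, and the restricted ratios are given from here on unless stated.

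Of 35 exhausted or memory genes with enough UMIs, 0 were higher and 6 lower in KO cycling cells, and in 0-UMI cells 0 were higher and 6 of 36 lower (median log2 ratio -0.06 in cycling cells). With the gate as stated the direction was the other way, with 4 of 36 higher and 2 lower in cycling cells (median 0.24). Over all genes in restricted 0-UMI cells, 2.16% were higher and 2.42% lower in KO. Cd38 stood at 13.5 CPM in KO and 29.6 in WT, a ratio of 0.456 (0.362 to 0.57), and 0.651 in 0-UMI cells. Maf stood at 39.7 against 83.4 CPM (0.476, 0.417 to 0.542; 0.625 in 0-UMI cells), and Gzmb at 669.8 against 1163 CPM (0.576, 0.558 to 0.595; 0.629 in 0-UMI cells). Klrg1, Gzmk and Eomes, the T-box factor of exhausted and memory cells, had ratios of 0.594, 0.606 and 0.657. Klrg1 was instead higher in KO with the gate as stated, at 1.3 (1.06 to 1.59), and Gzmk and Eomes were at 0.694 and 0.787. The ratio also crossed 1, from the gate as stated to restricted cells, for Havcr2 (1.03 to 0.842), Tigit (1.02 to 0.739), Cd160 (1.18 to 0.96), Cd244a (1.21 to 0.8), Tox (1.15 to 0.955), Gzma (1.24 to 0.971) and Id3 (0.757 to 1.06). Pdcd1 had a ratio of 1.06, and 1.31 with the gate as stated. Just short of the limit on the higher side stood Ifng at 225 against 151 CPM (1.49, 1.39 to 1.6; 1.04 in 0-UMI cells) and Il7r at 250.6 against 177 CPM (1.42, 1.33 to 1.51; 1.2 in 0-UMI cells), and both were at 1.65 with the gate as stated.

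Bfar itself had a ratio of 0.507 (0.401 to 0.637) in restricted cycling cells and 0.712 in 0-UMI cells. Of the cell cycle lists, 0 of 46 S phase genes and 2 of 64 G2 and M genes differed by 1.5 times between the genotypes. Over all genes 2.35% were higher and 2.35% lower. The gate chose the cells of both libraries by cell cycle genes, so these counts only describe the selected cells. Of 20 mevalonate genes 0 were higher and 5 lower (median log2 ratio -0.34, against -0.02 over all genes), and 0 and 8 with the gate as stated. The largest ratios were those of Slc17a6 (5.24), Serpinb9b (4.58, an intracellular serpin), Hspb1 (3.45, a small heat shock protein), Clec12a (3.27, an inhibitory lectin) and Gzmf (3.14, a granzyme), and the smallest those of Gfi1 (0.378, a repressor of T cell activation genes), Phpt1 (0.405), Ly6k (0.417), Pacsin1 (0.425) and Fam241a (0.431).

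Aged and Young cycling cells differed in more of the state genes. With the gate as stated, 707 of 11480 genes were higher in Aged (6.16%) and 1366 lower (11.9%), and in restricted cells 830 of 10291 were higher (8.07%) and 424 lower (4.12%). Of the 36 exhausted or memory genes 13 were higher and 9 lower in cycling cells (median log2 ratio 0.24), and 11 were higher and 3 lower in 0-UMI cells (median 0.23). The gate as stated gave 14 higher and 6 lower in cycling cells (median 0.43). Of 16 inhibitory receptors 8 were higher and 1 lower in cycling cells (5 and 0 in 0-UMI cells), and of 22 naive and memory genes 2 were higher and 10 lower (2 and 2 in 0-UMI cells). Over all genes in restricted 0-UMI cells, 6.22% were higher and 3.47% lower in Aged.

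Pdcd1 stood at 526 CPM in Aged and 263 in Young cycling cells, a ratio of 2.0 (1.91 to 2.08), and 1.85 in 0-UMI cells. Havcr2 had a ratio of 2.8 (2.54 to 3.09; 2.49 in 0-UMI cells), Lag3 of 3.18 (2.92 to 3.47; 3.75) and Ctla4 of 2.64 (2.48 to 2.81; 2.59). Tcf7 was lower in Aged, at 39.9 against 89.6 CPM (0.445, 0.402 to 0.493), with a ratio of 0.667 in 0-UMI cells. Klf2 had a ratio of 0.519 in cycling and 0.896 in 0-UMI cells, and Id3 of 0.329. The receptor ratios were thus close in the cycling and 0-UMI classes, and the Tcf7 and Klf2 ratios were further from 1 in cycling cells; the difference between classes has no replicate check.

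Prf1 had a ratio of 4.13 (3.77 to 4.53) in cycling and 2.13 in 0-UMI cells, and Gzmb of 1.98 (1.94 to 2.02) and 1.74. Gzma, for granzyme A, was lower in Aged (0.318, and 0.654 in 0-UMI cells), as was Itgae (0.152). The largest ratios belonged to granzyme genes of 1 cluster on chromosome 14, with Gzmg at 162 (interval 55.1 to 786, from 701 UMIs against 3), Gzmd at 30.5, Gzmf at 14.1 and Gzme at 10.5, beside Il1r2, a decoy receptor for interleukin-1, at 10.5. These granzymes are close paralogs, and how reads were split between them was not checked. The smallest ratios belonged to Ltf (0.115), Fcer1g (0.146, a signalling chain of innate-like T cells), Galnt18 (0.149), Itgae and Slc16a11 (0.182). Of 20 mevalonate genes 11 were higher in Aged and 0 lower (median log2 ratio 0.59, and 0.25 with 3 higher in 0-UMI cells). Of 18 glycolysis genes 6 were higher and 0 lower (median 0.50), and 0-UMI cells likewise had 6 higher and 0 lower (median 0.36). The gate as stated gave 3 higher mevalonate and 2 higher glycolysis genes and 0 lower. None of 46 S phase genes and 1 of 64 G2 and M genes differed by 1.5 times, in cells that the gate chose by cell cycle genes. Over all genes 8.07% were higher and 4.12% lower in cycling cells, and 6.22% and 3.47% in 0-UMI cells.

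**Figure D5:**
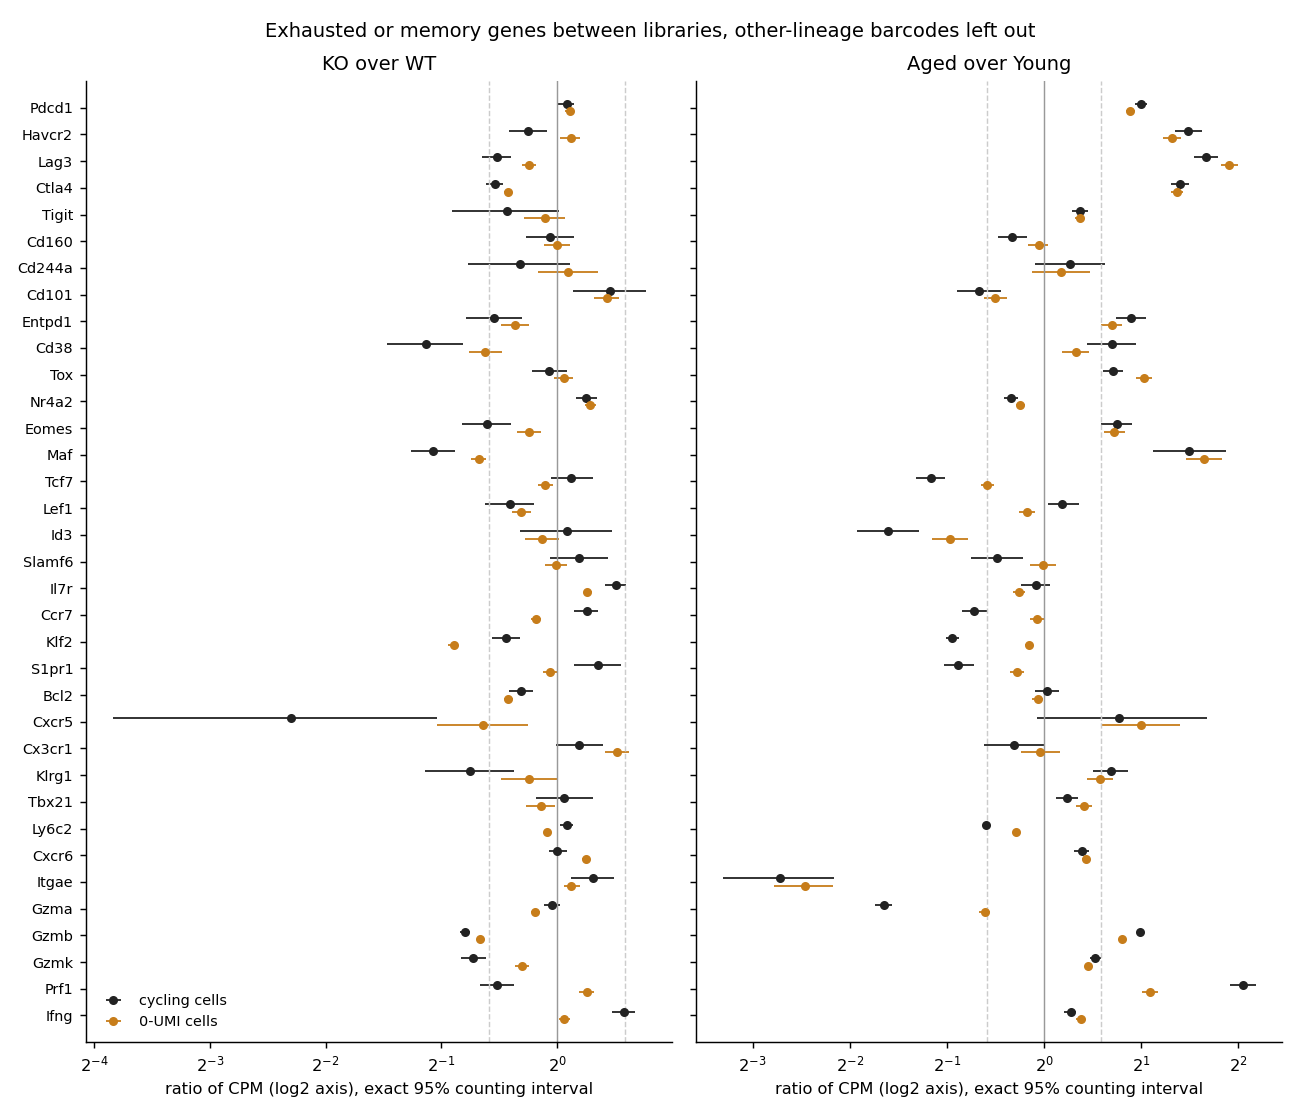
Ratio of CPM (log2 axis) for 35 of the 36 exhausted or memory genes in restricted cycling cells and restricted 0-UMI cells, KO over WT on the left and Aged over Young on the right, 1 library each; dashed lines mark 1.5-fold. Aged lies above Young for Pdcd1, Havcr2, Lag3 and Ctla4 in both classes, and KO lies below WT for Cd38, Maf and Gzmb.

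T cell receptor beta variable segments were compared as a readout that the gate did not use. A segment was detected in 30.5%, 29.9%, 97.3% and 96.2% of restricted cycling cells, the lower shares being those of the 3′ kit. In Aged, Trbv12-1 was the leading segment of 33.6% of cycling cells with a segment (exact 95% interval 30.6 to 36.7) and of 24.3% of 0-UMI cells, and Trbv1 of 4.69% against 13.8%. In Young, Trbv19 was held by 16% (13.7 to 18.5) against 6.45%, Trbv17 by 6.29% against 1.5% and Trbv26 by 9.28% against 19.7%. In WT, Trbv15 was held by 23.7% (17.7 to 30.4) against 13.4%, and in KO Trbv14 by 15.6% against 6.78%. The effective number of segments, the inverse of the summed squared shares, was 6.7 in cycling and 9.09 in 0-UMI cells of Aged, 8.18 and 10.3 in WT, 8.63 and 10.7 in KO, and 10.9 and 9.26 in Young. Each library pools 3 mice and cells of 1 clone share a segment, so these shares describe the libraries and were not tested.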

How the data were processed

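Single-cell RNA libraries of CD45+ CD8+ tumour T cells were read as UMI counts per gene and barcode, as deposited by the authors. Per the file headers these counts came from Cell Ranger 6.1.1 (WT and KO) and 7.1.0 (Young and Aged), whereas build mm10, Seurat 3.2.3 and another Cell Ranger release, 6.0.0, stand in the submitters' processing notes. Each file listed 31253 genes.

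Counts were summed by library and class (11207611 to 41033386 UMIs a sum) and fitted with edgeR 4.0.16 (R 4.3.3, limma 3.58.1; TMM, filterByExpr, glmQLFit, library as a block, residual degrees of freedom 3, common biological coefficient of variation 0.135), with Benjamini-Hochberg adjustment over all genes tested. The 4 gate genes were left out of calls. DESeq2 1.42.0 was an alternative. The script was tested on simulated data. Shares and ratios between libraries used Python 3.11.15, scipy 1.17.1 and exact intervals. Plotted CPM ratios carry no pseudocount. Log2 ratios between libraries, which give the medians and the ranking, carry a pseudocount of 1 CPM, as do the plain CPM ratios behind the median over all genes.

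Coordinates are those of GENCODE genes on mm10, matched by Ensembl ID, and promoters are RefSeq windows on GRCm38.p6. Members and gene lists were chosen with earlier results of these data known. The text names the gate genes, all exhausted or memory genes of interest, extreme members of other lists, the 10 largest and 10 smallest called changes outside the cell cycle lists, and the 5 largest and smallest ratios of each pair. The restricted cells and their depth-matched form were chosen after seeing the data. The labels give no replicate numbers. The block is the library, from which both classes of a pair were taken. Values of some listed genes are not reported here, although counts and medians over a list include them.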

Additional observations from a re-analysis of the deposited data

Results flagged for a closer look

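The cycling effect on 3 listed genes differed between the transfer libraries (Young and Aged) and the endogenous libraries (WT and KO), by an edgeR interaction term with Benjamini-Hochberg adjustment, a comparison added after the data were seen. Host, cell source, kit and software version all change with this contrast and cannot be told apart. The difference in log2 fold change of cycling over 0-UMI cells, transfer minus endogenous, was 0.67 ± 0.09 for Havcr2 (adjusted p = 0.046), 0.59 ± 0.07 for Lag3 (adjusted p = 0.045) and 1.51 ± 0.17 for Itgae (adjusted p = 0.039) with the gate as stated.

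For Havcr2 the ratio of cycling to 0-UMI CPM was 0.965 in WT, 0.92 in KO, 1.38 in Young and 1.24 in Aged. For Lag3 it was 0.804, 0.825, 1.11 and 1.03, and for Itgae 0.476, 0.676, 1.39 and 1.44. In restricted cells the differences were 0.18 ± 0.12 for Havcr2 (adjusted p = 0.47), 0.34 ± 0.11 for Lag3 (adjusted p = 0.16) and 0.25 ± 0.14 for Itgae (adjusted p = 0.41) by edgeR, so none kept its call. Over all genes the interaction was called higher for 69 and lower for 27 of 13341 genes with the gate as stated, and for 188 and 58 of 12234 in restricted cells, where Pdcd1 (0.33 ± 0.07, adjusted p = 0.03) and Il7r (0.44 ± 0.09, adjusted p = 0.026) were the 2 called genes among the 36.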

How the results depend on the processing

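With the gate as stated, 3444 genes were called higher and 4099 lower. Without the library block (no pairing of the classes) the counts were 1474 and 1098. With 0-UMI cells matched on total UMIs they were 2121 and 1945, and with other-lineage barcodes left out as well 2071 and 2074. Thinning to 2000 UMIs gave 2571 lower. It shared 2067 higher and 2479 lower calls with the gate as stated, and 0 calls turned direction. Leaving out 1 library at a time gave 3123 to 3495 higher and 3281 to 3611 lower. Genes called in both analyses numbered 2331 higher and 3448 lower with restricted cells, where 53 turned from higher to lower and 0 the other way, and 1441 and 1434 with restricted, matched cells, where 134 and 99 turned. DESeq2 shared 3356 and 3925 calls. No replicate numbers are given in the labels, so no other pairing was made.

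The cycling share in WT, KO, Young and Aged was 10.2%, 8.7%, 13.5% and 15.4% at a limit of 3 UMIs and 6.9%, 5.38%, 10.4% and 11.6% at 6. It was 5.89%, 5.04%, 9.3% and 9.37% after thinning, 5.57%, 4.13%, 9.73% and 10.4% without cells over the 95th percentile of UMIs, 5.32%, 3.89%, 7.69% and 8.76% without any cell holding a non-T marker UMI, and 7.18%, 5.99% and 10.7% in restricted cells of the first 3 libraries. Thinning took the Aged to Young share ratio to 1.01.

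Between KO and WT, 187 genes were higher after thinning and 1956 with no filter on low counts. Lower genes numbered 223 in restricted cells, 335 after thinning, 315 without the deepest cells, 335 without any-marker cells and 4893 with no filter. Between Aged and Young, 2995 were higher with no filter, and 424, 334, 431, 342 and 5141 were lower under the same 5 settings. Beyond the listed genes whose ratio crossed 1 as given in the report, the direction of the KO to WT log2 ratio turned for Igfbp5 (-0.14 restricted, -0.23 without the deepest cells, -0.32 without any-marker cells), Il17a (-0.31 without any-marker cells) and Gpx2 (0.029 restricted, 0.099 without any-marker cells), and the Aged to Young ratio of Gpx2 turned (0.088 and 0.24) as did that of Mmp12 (0.25 restricted, 1.0 at a limit of 6 UMIs, 0.26 without the deepest cells).

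For cycling over 0-UMI cells the log2 fold change turned for Ctla4 (0.076 matched, 0.041 without the deepest cells, 0.11 without any-marker cells), Cd160 (0.17 restricted), Cd244a (-0.74 matched, -0.87 restricted and matched), Nr4a2 (0.050 and 0.083), Id3 (0.084 restricted and matched) and Klf2 (0.10 and 0.065). It also turned for Cx3cr1 (0.24 matched, 0.047 without the deepest cells, 0.15 restricted and matched), Tbx21 (0.35, 0.088 and 0.25, and 0.041 without any-marker cells), Gzma (0.31 without the deepest cells) and Gzmk (0.52 matched, 0.25 without the deepest cells, 0.24 without any-marker cells, 0.10 restricted, 0.49 restricted and matched). Of the other single-gene values, 759 kept direction and side of the threshold, 75 lost their call and 33 gained it. The cause of these changes was not tested. Beyond the calls named in the report, leaving out a library changed that of Gzmk in restricted cells (higher without KO, 0.17 ± 0.06, edgeR, adjusted p = 0.0497) and, after depth matching, those of Entpd1 (lower without WT, -0.35 ± 0.08, adjusted p = 0.0052) and Gzma (higher without WT, 0.24 ± 0.08, adjusted p = 0.024). The total UMIs of cycling and 0-UMI barcodes differ, so comparisons at their own depth are limited by it.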
